A study of Mus musculus with 25 samples.

Results

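The 10 genes described here set how much muscle a mouse builds and how fast it loses it: the ligands Mstn (myostatin) and Gdf11, their antagonist Fst (follistatin), the receptor Acvr2b, the ubiquitin ligases Fbxo32, Trim63 and Fbxo30, and the transcription factors Foxo1, Foxo3 and Foxo4. They were chosen by name and not by a rule on their values, though earlier results of these data were known. They are 10 of 26182 genes with a curated RefSeq transcript. Each was located in the mouse genome build mm10 (GRCm38), and peaks were read at TSS±1 kb of every curated transcript (TSS, transcription start site), in the gene body and up to 50 kb on each side. The peaks come from chromatin immunoprecipitation followed by sequencing (ChIP-seq) in primary myoblasts, the dividing precursors of muscle fibers, taken from front and hind limb muscle of C57BL/6 mice (C57BL/6 N in the methods of the study) at 10 days of age, enriched by preplating and grown to roughly 70% confluency. No knockout or treatment is stated for these cells. One library was made with 5 µg of an antibody against Spin1 and 1 with 1 µg of an antibody against H3K4me3 (trimethylated lysine 4 of histone H3, which the labels also write as H3K4me), each amplified over 12 PCR cycles. With 1 library per antibody there are no replicates, so peaks were counted and their values described, and no test was made. RNA-seq libraries of fetal and juvenile muscle and the ChIP input library belong to the same series and were not analysed here.

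Myostatin and its close relative Gdf11 are secreted members of the TGF-β family that bind activin type II receptors, Acvr2b among them, and signal through Smad2 and Smad3 to hold back muscle growth, and follistatin binds these ligands and keeps them from the receptor. Foxo transcription factors are held out of the nucleus by Akt when insulin-like growth factors are plentiful, and in fasting or disuse they enter it and switch on ubiquitin ligases that mark muscle proteins for the proteasome. Spin1 is a reader protein whose Tudor-like domains bind H3K4me3, a histone mark found at the start of active and poised genes.

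The Spin1 list held 17106 peaks and the H3K4me3 list 30763. Each peak carries a score from the peak caller MACS, which is higher the less likely the peak is under its background model. Scores ran from 50.66 to 3233.06 for Spin1 and from 50.03 to 3228.29 for H3K4me3. They pile up at 3100, which 30.9% of Spin1 and 45.2% of H3K4me3 peaks reached or passed, so peaks at that value cannot be ranked. The lists do not give read counts, so the depth is unknown, and a gene without a listed peak is one where none was called and not one shown to be free of the protein or mark. The labelled cell type was checked against fixed marker genes. All 8 myoblast markers (Myod1, Pax7 and Des among them) had both peaks at the promoter, where 50.6% of all genes had both. Over all genes, 61.9% had H3K4me3 and 50.7% Spin1 there, the shares to hold beside the other marker counts. H3K4me3 was also present at 4 of 5 fibroblast, 3 of 5 endothelial, 1 of 5 blood cell, 1 of 5 adipocyte and 4 of 5 Schwann cell markers, and Spin1 at 3, 0, 0, 1 and 2 of them, respectively. What other cells in the culture added to the values was not tested.

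H3K4me3 marked the promoters of all 10 genes, and Spin1 those of 9, all except Mstn. Across the genome, 61.9% of genes had an H3K4me3 peak, 50.7% a Spin1 peak and 50.6% both. Among the 21000 protein-coding genes the shares were 68.0% for H3K4me3 and 56.7% for Spin1. Of the genes with H3K4me3, 81.7% also had Spin1, which is the figure to hold beside 9 of 10. The 10 genes were not alike in the strength of their peaks. The Spin1 score ranged from 240.48 at Trim63 to 3100 at Fbxo30, Foxo1 and Foxo3, and the Spin1 width from 1184 bp at Trim63 to 4994 bp at Foxo3.

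The sequence just before the TSS differed as much. RefSeq promoter sequences (GRCm38) were matched by symbol for 7 of the 10 genes, all but Fst, Fbxo32 and Foxo4. The 250 bases before the TSS are printed for 5 of them, to set the gene without Spin1 (Mstn) and the gene with the weakest Spin1 peak (Trim63) beside Gdf11, Foxo1 and Foxo3. They run 5′ to 3′ on the strand of the gene, and capitals mark CpG dinucleotides. They lie at chr1:53061390-53061639 on the + strand (Mstn), chr4:134314870-134315119 on the + strand (Trim63), chr10:128891719-128891968 on the - strand (Gdf11), chr3:52268087-52268336 on the + strand (Foxo1) and chr10:42276696-42276945 on the - strand (Foxo3).
Mstn: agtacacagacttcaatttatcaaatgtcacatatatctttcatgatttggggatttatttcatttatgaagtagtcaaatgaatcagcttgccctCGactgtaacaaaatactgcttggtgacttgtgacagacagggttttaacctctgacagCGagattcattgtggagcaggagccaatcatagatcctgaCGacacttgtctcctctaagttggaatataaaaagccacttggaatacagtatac
Trim63: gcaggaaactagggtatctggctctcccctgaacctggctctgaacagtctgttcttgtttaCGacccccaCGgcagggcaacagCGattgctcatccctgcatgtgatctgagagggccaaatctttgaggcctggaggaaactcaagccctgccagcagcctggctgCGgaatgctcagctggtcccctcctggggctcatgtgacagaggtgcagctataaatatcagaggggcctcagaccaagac
Gdf11: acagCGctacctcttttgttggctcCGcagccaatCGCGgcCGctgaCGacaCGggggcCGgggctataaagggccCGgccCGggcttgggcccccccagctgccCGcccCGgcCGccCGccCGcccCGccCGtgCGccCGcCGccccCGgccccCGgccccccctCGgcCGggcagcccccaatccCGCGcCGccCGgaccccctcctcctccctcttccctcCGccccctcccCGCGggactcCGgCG
Foxo1: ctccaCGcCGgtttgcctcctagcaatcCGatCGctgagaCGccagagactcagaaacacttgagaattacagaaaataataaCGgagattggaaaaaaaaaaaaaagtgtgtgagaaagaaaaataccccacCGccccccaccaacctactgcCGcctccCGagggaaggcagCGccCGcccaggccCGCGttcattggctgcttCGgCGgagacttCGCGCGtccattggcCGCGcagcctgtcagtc
Foxo3: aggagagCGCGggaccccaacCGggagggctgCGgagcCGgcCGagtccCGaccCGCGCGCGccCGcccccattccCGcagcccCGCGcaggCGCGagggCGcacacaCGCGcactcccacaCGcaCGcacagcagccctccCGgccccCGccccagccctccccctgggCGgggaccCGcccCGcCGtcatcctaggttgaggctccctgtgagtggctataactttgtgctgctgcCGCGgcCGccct
Capitals are sparse in Mstn and Trim63 and dense in the others. Mstn had 3 CpGs and Trim63 had 4, against 33 in Gdf11, 20 in Foxo1 and 31 in Foxo3, and the median of 32851 promoters of this length was 6. The promoters of Acvr2b and Fbxo30, not printed because an exon overlaps them, had 24 and 40 CpGs. The bases of Fbxo30 precede a TSS at chr10:11281587. They lie past the TSS at chr10:11281330 from which its peaks are measured, and thus inside the gene.

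A few short motifs were searched in the same 250 bases on both strands. The TATA box TATAAA, which positions the transcription machinery, occurred in Mstn from 29 to 24 bp before the TSS, in Trim63 from 31 to 26 bp and in Gdf11 much farther away, from 185 to 180 bp. Of all promoters, 12.4% held it. The E-box CAGCTG, a sequence bound by MyoD and related factors, occurred once in Trim63 and once in Gdf11 (13.0% of all promoters), and the E-box CAGGTG occurred in none of the 7 (17.2%). The Foxo motif GTAAACA was found in 1 of the 7, Trim63, on the opposite strand from 194 to 188 bp before the TSS, against 3.17% of all promoters. An exact match to the full palindromic glucocorticoid receptor element occurred in none of the 7 and in 3 of all promoters. The printed Trim63 bases do hold a near match, which differs from the element only in its first base. It ends directly before the Foxo match. Near matches were not searched for in the other promoters of the 7, and how many of all promoters hold one was not counted. No match overlapped another. These are matches of letters and not measured sites.

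**Figure D1:**
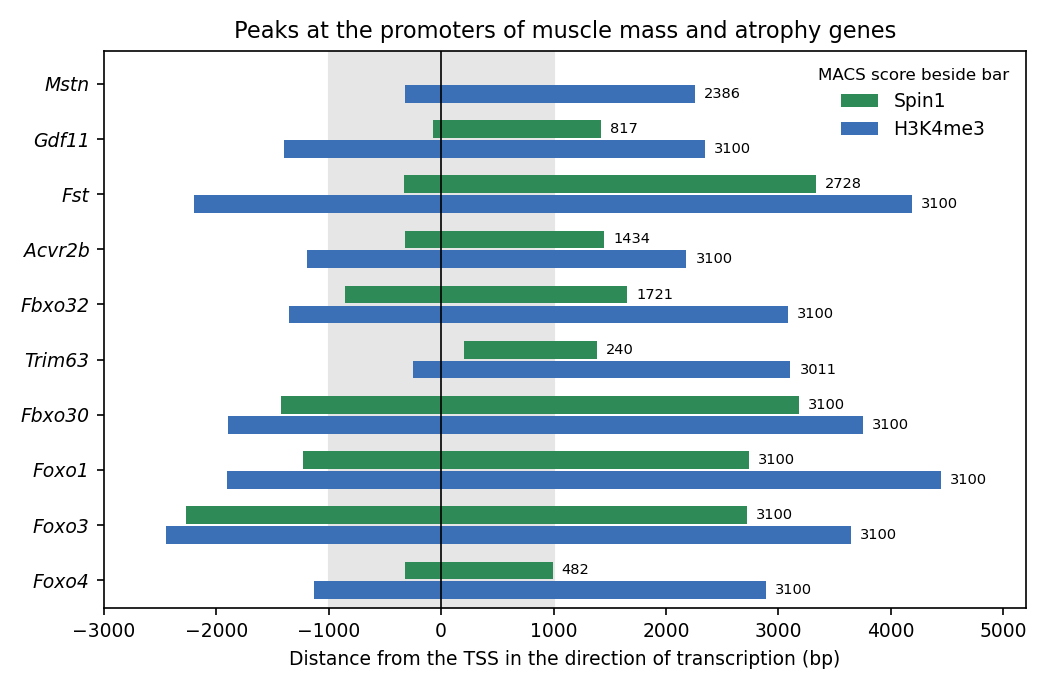
Extent of the Spin1 (green) and H3K4me3 (blue) peaks at each promoter, in bp from the TSS in the direction of transcription, with the MACS score beside each bar and TSS±1 kb shaded. All 10 genes have a blue bar across the TSS, Mstn has no green bar, and the green bar of Trim63 begins 205 bp past the TSS.

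Mstn, the secreted brake on muscle growth, carried 1 H3K4me3 peak and nothing else. The peak lay at chr1:53061321-53063898, was 2578 bp wide and had a score of 2386.07. It began 319 bp before the TSS and ended 2258 bp after it, with its center in intron 1, so that 12.4% of it lay upstream. It was the narrowest of the 10 H3K4me3 peaks and the one with the lowest score, although it was wider than 36.6% of all H3K4me3 promoter peaks. No Spin1 peak was listed anywhere in the 106440 bp of the gene and its flanks, where no other curated gene lies. Genes with an H3K4me3 score in the same range mostly lacked Spin1: of 495 genes with a score from 1500 to 3000, 23.2% had a Spin1 peak, and of the 233 protein-coding ones among them without a CpG-rich promoter, 25.8% did. From a score of 3000 upward the share was 90.9% of 14328 genes. By width the picture was the opposite: of 4224 genes whose H3K4me3 peak was 2000 to 3000 bp wide, as that of Mstn was, 85.0% had Spin1.

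Gdf11, the ligand most like myostatin in sequence, had both peaks. Its Spin1 peak (chr10:128890300-128891789) was 1490 bp wide with a score of 817.27, and its H3K4me3 peak (chr10:128889371-128893118) was 3748 bp wide with a score of 3100. Spin1 lay almost wholly on the transcribed side, from 71 bp before to 1418 bp after the TSS, where it covered exon 1 and part of intron 1, while H3K4me3 reached 1400 bp upstream. The Spin1 peak was narrow, wider than 22.5% of all Spin1 promoter peaks.

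Fst, whose product follistatin blocks both ligands, had a much broader Spin1 peak, at chr13:114455615-114459284. It was 3670 bp wide with a score of 2727.93, wider than 89.1% of all Spin1 promoter peaks, and covered 49.9% of this short gene. The H3K4me3 peak (chr13:114454764-114461153) was the widest of the 10 genes at 6390 bp, with a score of 3100, and covered 62.6% of the gene. Both were centered inside the gene, Spin1 at 1502 bp and H3K4me3 at 993 bp past the TSS. Other annotated starts lie beneath them, that of the antisense transcript Gm47040 at 288 bp and those of the RefSeq model Gm41074, also antisense, at 2155 and 2447 bp. ChIP signal has no strand, so the share of each start cannot be told apart.

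Acvr2b, the receptor, had a Spin1 peak of 1777 bp with a score of 1433.67 at chr9:119401855-119403631. Its H3K4me3 peak was 3376 bp wide with a score of 3100 (chr9:119400985-119404360). The Spin1 peak spanned the TSS, from 323 bp before to 1453 bp after it, and was on the narrow side, wider than 33.5% of Spin1 promoter peaks.

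Among the ubiquitin ligases, which attach ubiquitin to muscle proteins and are induced when muscle wastes, the Spin1 peaks ranged from the weakest of the members to some of the strongest. Fbxo32 (atrogin-1, also MAFbx), the substrate-binding part of an SCF ligase, had a Spin1 peak of 2513 bp with a score of 1721.06 (chr15:58213238-58215750). Its H3K4me3 peak was 4439 bp wide with a score of 3100 (chr15:58211807-58216245). Both spanned the TSS, and an antisense transcript, Gm15943, starts under them 417 bp into the gene.

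Trim63 (MuRF1), a RING ligase that acts on proteins of the thick filament, had the weakest and narrowest Spin1 peak of the 9. It was 1184 bp wide with a score of 240.48 (chr4:134315325-134316508), and 9.43% of Spin1 promoter peaks scored lower. It was also the single member peak that did not cover the TSS, lying from 205 to 1388 bp after it over coding sequence and intron 1. The H3K4me3 peak did cover the TSS, from 247 bp before to 3107 bp after it, and was 3355 bp wide with a score of 3010.94 (chr4:134314873-134318227). Trim63 and Mstn were the members whose H3K4me3 score fell short of 3100.

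Fbxo30 (MUSA1), another F-box subunit, stood at the other end. Its Spin1 peak was 4610 bp wide with a score of 3100 (chr10:11279905-11284514), and its H3K4me3 peak 5647 bp wide with a score of 3100 (chr10:11279436-11285082). The Spin1 peak was wider than 96.0% of all Spin1 promoter peaks. The peaks span 2 curated starts of the gene and those of a divergent noncoding transcript, 4930432B10Rik, at -332 and -109 bp from the TSS, and their transcribed part lay over untranslated exon and intron with no coding base.

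The Foxo factors did not share one pattern. Foxo1 had a Spin1 peak of 3972 bp with a score of 3100 (chr3:52267106-52271077) and an H3K4me3 peak of 6350 bp with a score of 3100 (chr3:52266432-52272781). Foxo3 had the widest Spin1 peak of the 10 genes, 4994 bp with a score of 3100 (chr10:42273975-42278968), inside an H3K4me3 peak of 6091 bp with the same score (chr10:42273052-42279142). At both genes Spin1 was broad, wider than 92.4% of Spin1 promoter peaks at Foxo1 and 97.4% at Foxo3. Foxo4, the X-linked member of the family, had a Spin1 peak of 1313 bp with a score of 481.81 (chrX:101254207-101255519), wider than 16.9% of Spin1 promoter peaks. Its H3K4me3 peak was 4023 bp wide with a score of 3100 (chrX:101253394-101257416), so that Foxo4 had the narrowest peak of the 3 genes in both lists. An antisense transcript (Gm20402) starts 1098 bp into Foxo1, and a RefSeq model on the same strand (Gm38485) starts 1886 and 2804 bp into Foxo3.

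**Figure D2:**
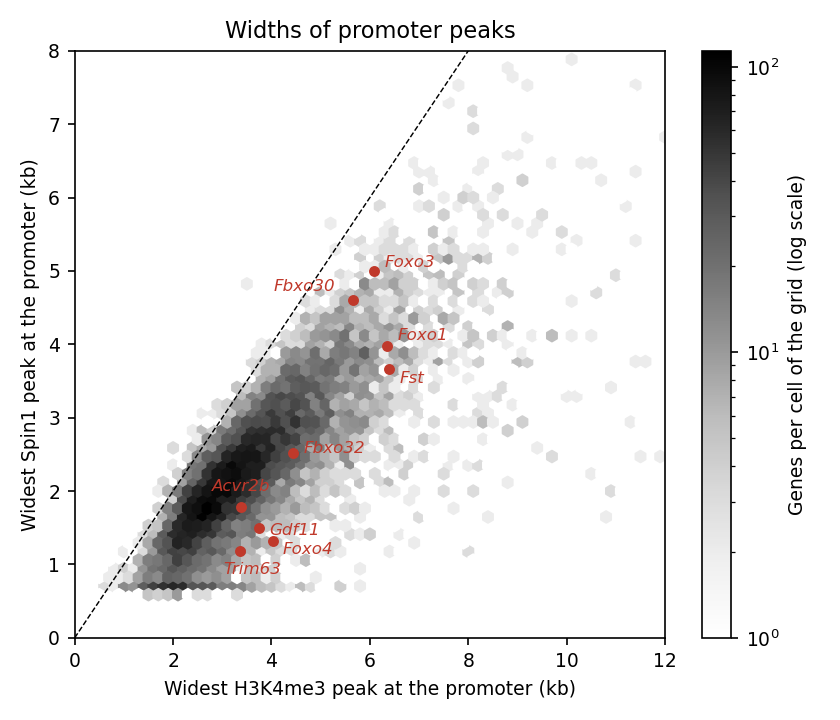
Width of the widest Spin1 peak against that of the widest H3K4me3 peak at the promoter, in kb, for all genes with both (gray grid, log color scale) and the 9 named genes with both (red); the dashed line marks equal widths. Foxo3, Fbxo30, Foxo1 and Fst sit at the wide end, and Foxo4, Gdf11 and Trim63 lie low for the width of their H3K4me3 peak.

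At each gene with both marks the Spin1 peak lay wholly inside the H3K4me3 peak, in 9 of 9 genes against 91.7% of 11769 Spin1 promoter peaks with H3K4me3. How much of the H3K4me3 peak it filled varied. It took up 82.0% of the width at Foxo3 and 81.6% at Fbxo30. At Foxo1 it was 62.6%, at Fst 57.4%, at Fbxo32 56.6% and at Acvr2b 52.6%. At Gdf11 it was 39.8%, at Trim63 35.3% and at Foxo4 32.6%, so Spin1 covered the smaller part of the H3K4me3 peak at these 3 genes. The median of the 9 was 56.6%, against 64.1% over all such peaks. The median width of the members was 2513 bp for Spin1 and 4231 bp for H3K4me3, against 2167 and 3029 bp over all promoter peaks. Their median Spin1 score, 1721.06, was below that of all Spin1 promoter peaks, 2572.14, and 3 of 9 reached 3100 against 43.9%. For H3K4me3, 8 of 10 reached 3100 against 84.1%. The width of a called peak can depend on depth and on the caller. Medians and percentiles of width were therefore compared within each list. The part of the H3K4me3 peak that Spin1 filled sets the lists against each other. These libraries differed in antibody, in its amount (5 and 1 µg) and, per the study, in the amount of chromatin. What those differences added to the shares was not tested.

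The peaks leaned into the genes. The center lay downstream of the TSS in 9 of 9 genes for Spin1, by 224 to 1502 bp, and in 10 of 10 for H3K4me3, by 474 to 1430 bp. Most genes with a single such peak did the same, 81.9% for Spin1 and 83.4% for H3K4me3. The Spin1 peak covered the TSS in 8 of 9 genes against 96.4% of all, and the exception was Trim63.

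Base composition, which had no part in the choice of genes, was next compared. A promoter was called CpG-rich when any 500 bp within TSS±1 kb had at least 55% GC and a ratio of observed to expected CpG of at least 0.75. This held for 8 of the 10 genes, against 53.0% of protein-coding genes, and the exceptions were Mstn and Trim63. Over TSS±0.5 kb, Mstn had 38.5% GC, with 5.87% of protein-coding promoters lower, and a CpG ratio of 0.486. Trim63 had 58.2% GC but a CpG ratio of 0.271. The other 8 genes ranged from 61.6% GC at Foxo4 to 74.3% at Fbxo30, and in CpG ratio from 0.709 at Fbxo32 to 1.06 at Foxo1. The medians of the 10 were 68.5% and 0.814, against 56.0% and 0.601 over 20963 protein-coding genes. The gene without Spin1 and the gene with the weakest Spin1 peak were thus the members without a CpG-rich promoter, but with a looser limit (50% GC and a ratio of 0.6 over 200 bp) Trim63 counted as CpG-rich and Mstn alone did not. Across protein-coding genes with H3K4me3, 90.0% of the CpG-rich and 60.5% of the others had a Spin1 peak. Foxo4 and Gdf11 had a CpG-rich promoter, an H3K4me3 score of 3100 and a narrow Spin1 peak. Whether CpG content or H3K4me3 score has a part in these differences was not tested.

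**Figure D3:**
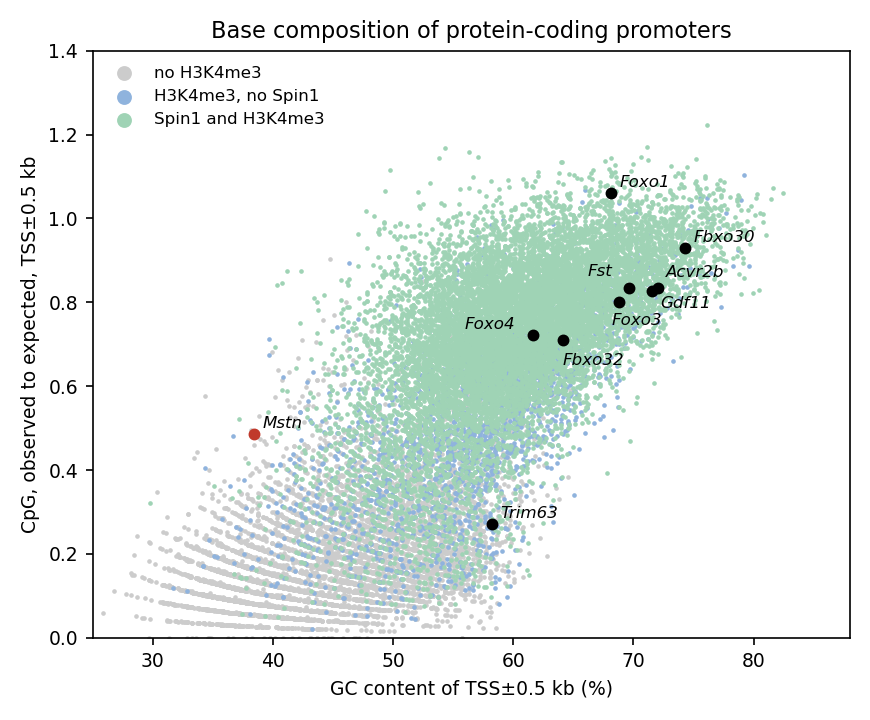
GC content (%) against the ratio of observed to expected CpG over TSS±0.5 kb for protein-coding promoters, colored by the peaks at the promoter, with the 10 genes as large points (Mstn, the gene without Spin1, in red). Mstn and Trim63 lie outside the dense green cloud that holds the other 8 genes.

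The rest of each pathway was read from lists that leave out the 10 genes. Over all protein-coding genes, 68.0% had H3K4me3, and 83.3% of those with H3K4me3 had Spin1. These are the shares to hold beside the counts of the 3 lists. Of 24 genes of myostatin and activin signaling, from activin subunits and proteases to receptors and Smads, 24 had H3K4me3 and 21 Spin1. Those without Spin1 were Tll2, a protease that frees myostatin from its propeptide (H3K4me3 score 3100), and Wfikkn1 (65.94) and Wfikkn2 (221.57), secreted proteins that bind myostatin and Gdf11. The type I receptors Acvr1b (Spin1 score 1236.43) and Acvr1c (184.68) had a Spin1 peak. Of 25 ubiquitin ligases and their partners, 25 had H3K4me3 and 23 Spin1. Those without were Asb2, a substrate-binding subunit of a Cullin ligase (H3K4me3 score 1675.77), and Fbxo40, a muscle F-box protein that targets Irs1 (217.18). The ligase gene Cblb and the scaffold gene Cul1 had Spin1 scores of 3100. All 32 Foxo regulators and targets had both marks, among them the kinase genes Akt1 and Akt2.

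With the 3 lists pooled, 76 of 81 genes (93.8%) had Spin1. Of those peaks 72.4% scored at least 3100, against 3 of 9 for the members and 43.9% of all Spin1 promoter peaks. With the 10 members included, all 77 genes with a CpG-rich promoter had both marks, and of the 14 without one, 14 had H3K4me3 and 8 Spin1, to be read beside the genome-wide shares of 90.0% and 60.5% for such genes with H3K4me3. The 6 genes with H3K4me3 alone, Mstn, Tll2, Wfikkn1, Wfikkn2, Asb2 and Fbxo40, were all among these 14. All but Tll2 (3100) also had an H3K4me3 score under 3000, from 65.94 at Wfikkn1 to 2386.07 at Mstn. Of all genes with a score from 50 to 500, 6.06% had Spin1, and from 1500 to 3000, 23.2% did. The parts of CpG content and H3K4me3 score were not told apart, and neither was tested as a cause.

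**Figure D4:**
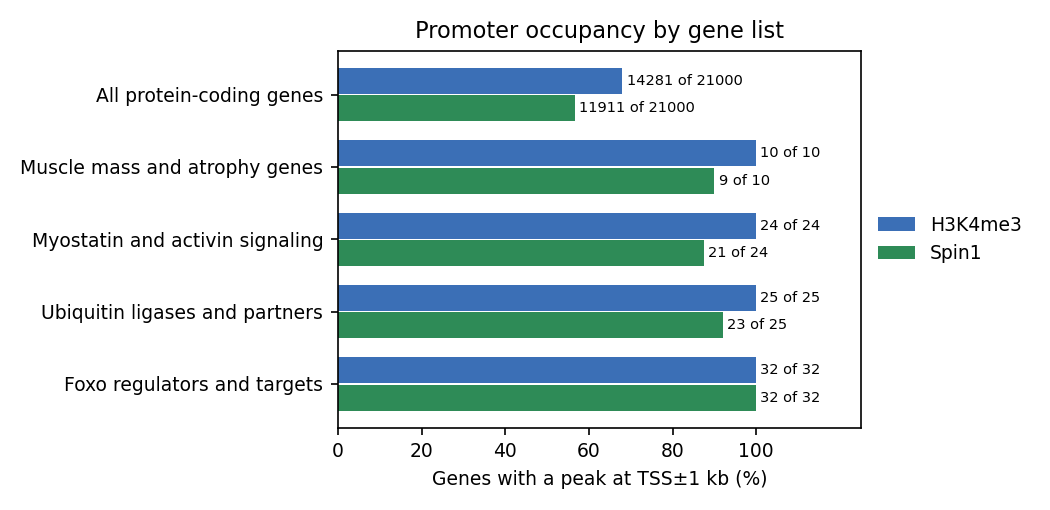
Percent of genes with an H3K4me3 (blue) or a Spin1 (green) peak at TSS±1 kb among all protein-coding genes, the 10 muscle mass and atrophy genes and the 3 pathway lists, with counts beside the bars. The 10 genes and the pathway lists reach 100% for H3K4me3, and Spin1 is missing from 1 of the 10 and from 3, 2 and 0 genes of the pathway lists from top to bottom.

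Beyond the promoters, the gene bodies with their flanks made up 1317430 bp in all, of which Spin1 peaks covered 4.56% and H3K4me3 peaks 8.23%. Of 22 Spin1 peaks there, 9 lay at the promoters of the members, 11 at promoters of neighboring genes and 2 away from any curated promoter. Of 33 H3K4me3 peaks, 10, 12 and 11 did. None of the 11 H3K4me3 peaks away from promoters overlapped a Spin1 peak, where 17.6% of 16158 such peaks in the genome did. Neither of the 2 Spin1 peaks overlapped H3K4me3, where 72.6% of 5309 did. The median score of the 11 was 138.02 and the highest 1625.22, while the 17.6% covers such peaks of every score. Spin1 overlapped 5.53% of those that scored 50 to 100 and 9.53% from 100 to 500. The share was 18.2% from 500 to 1000 and 31.1% from 1000 to 3000. Whether the score accounts for the lack of overlap was not tested.

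The strongest of the 11 lay upstream of Foxo genes. One, at chr10:42308012-42308974, was centered 31798 bp before the TSS of Foxo3, with a width of 963 bp and a score of 1625.22. Another, at chr3:52257518-52258816, was centered 10170 bp before the TSS of Foxo1, with a width of 1299 bp and a score of 1427.91. In both cases the Foxo gene had the nearest curated TSS. The central 200 bases are printed on the + strand, at chr10:42308393-42308592 and chr3:52258067-52258266, to show H3K4me3 regions that are poorer in CpGs (capitals) than the promoters of the same genes.
Foxo3 upstream peak: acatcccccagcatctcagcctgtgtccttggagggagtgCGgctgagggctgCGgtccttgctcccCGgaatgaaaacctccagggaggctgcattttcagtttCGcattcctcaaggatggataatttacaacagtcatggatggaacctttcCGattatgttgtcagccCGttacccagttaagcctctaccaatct
Foxo1 upstream peak: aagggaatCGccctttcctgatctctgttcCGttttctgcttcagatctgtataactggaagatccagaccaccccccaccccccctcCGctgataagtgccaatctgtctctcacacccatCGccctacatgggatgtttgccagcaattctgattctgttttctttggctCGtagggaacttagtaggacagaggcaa
The first holds 6 CpGs and the second 5. Neither contains the general E-box CANNTG on either strand, which 63.6% of the central 200 bases of all H3K4me3 peaks away from promoters did, and neither contains GTAAACA, which 2.72% did.

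Inside the genes, Foxo3 had 4 H3K4me3 peaks in intron 2 in addition to its promoter peak, centered 5930, 7081, 15809 and 25286 bp past the TSS. Their scores were 138.02, 63.6, 76.1 and 164.13. Fbxo32 had 1 in intron 4, at chr15:58203263-58204753, with a score of 548.31. No other member had an H3K4me3 peak of this kind in its body, and none had a Spin1 peak there apart from the promoter. The other 4 H3K4me3 peaks lay in the flanks of Gdf11 (scores 222.62 and 74.29) and Trim63 (69.79 and 51.87), and the one nearer to Gdf11, centered 4328 bp before its TSS, covers a RefSeq model start of Cd63. One Spin1 peak away from promoters was centered at -37052 bp from the TSS of Gdf11 (score 157.17), with Itga7 the gene with the nearest TSS. Its score was close to the median of all Spin1 peaks away from promoters, 144.71.

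**Figure D5:**
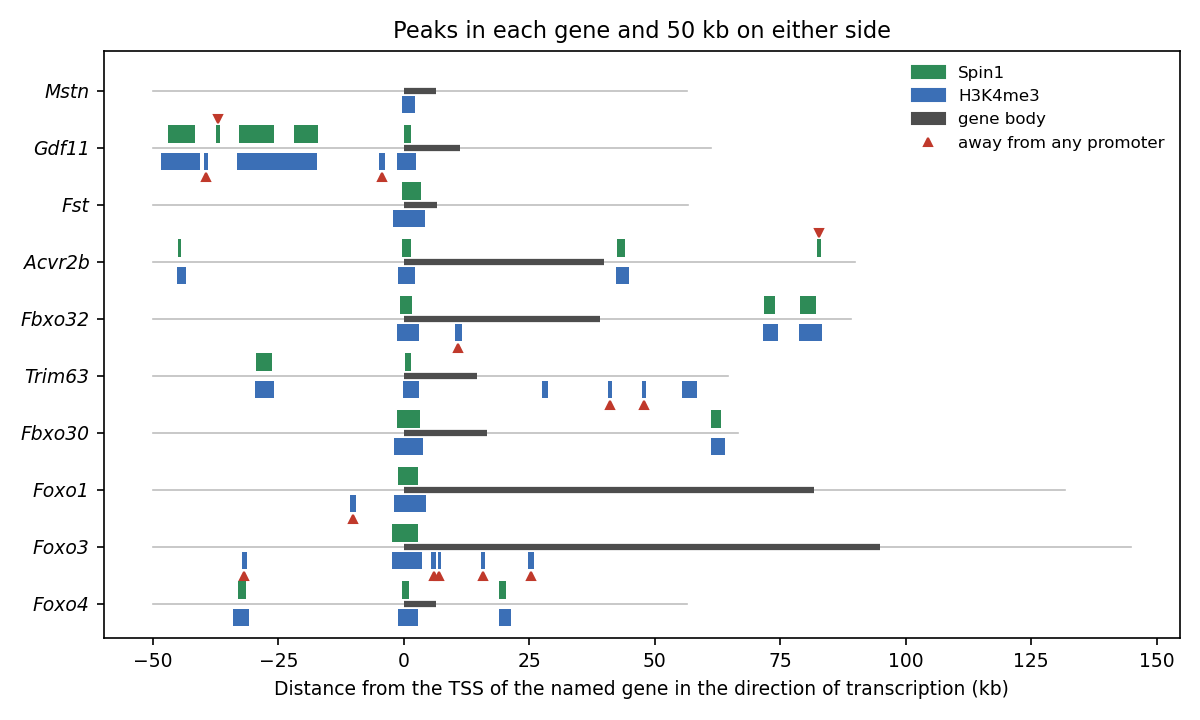
All Spin1 (green, above the line) and H3K4me3 (blue, under the line) peaks in each gene (dark bar) and 50 kb on either side, by distance from the TSS in kb in the direction of transcription; red triangles mark peaks away from any curated promoter, and narrow peaks are drawn at 0.7 kb. Mstn and Fst have no peak outside the promoter, and the triangles at Foxo1, Foxo3 and Fbxo32 all mark blue bars without a green one.

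The surroundings of the genes differed too. The 10 regions touched 20 other curated genes, all protein-coding, of which 17 had H3K4me3 and 15 Spin1 at the promoter. Over all protein-coding genes the shares were 68.0% and 56.7%, and 83.3% of those with H3K4me3 had Spin1. The regions of Mstn, Fst and Foxo1 touched no other curated gene. Gdf11 had 5 neighbors that all had both marks at a score of 3100, with Cd63, Rdh5 and Bloc1s1 under a single H3K4me3 peak of 16027 bp and the myoblast marker Itga7 under one of 7648 bp. Beside them the Spin1 score of Gdf11 itself, 817.27, was the lowest. Trim63 lay between Pdik1l, which had both marks at 3100, and Slc30a2 (H3K4me3 score 292.73) and Extl1 (3100), which had no Spin1 peak. Around Foxo4, Snx12 and Med12 had Spin1 scores of 773.56 and 848.82, both above that of Foxo4, and Gm614, Il2rg and Nlgn3 had neither mark.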

How the data were processed

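Per the labels and the methods of the study, the authors aligned ChIP-seq reads to mm10 with Bowtie2, called peaks with MACS 1.4.2 against an input library and used those up to a false discovery rate of 1%. The deposited lists are as long as those the study describes. They deposited, for each antibody, the position of each peak and the MACS score, which that version of MACS derives from the negative log10 of a peak's p. Here, 1 was added to the deposited start of each peak, so printed positions are 1-based with both ends included. Peaks were overlapped by at least 1 bp with TSS±1 kb of 45756 curated RefSeq transcripts of 26182 genes (GRCm38). Python 3.11.15 was used with pandas 2.3.3, NumPy 2.4.6 and pysam 0.24.0. The overlap step was tested on simulated data. Where several peaks lay at a promoter, the highest score and the greatest width are given. Named are all 10 members, pathway genes with H3K4me3 and no Spin1 peak, the first 2 of each list with both in alphabetical order, and the gene with the TSS nearest to each other peak. Neighbors, nearby transcripts and marker genes named beyond these were picked after their values were seen. The list entry Skp1a was matched to Skp1. Members and lists were chosen with earlier results of these data known. Alternatives changed the window, the TSS set, the score minimum, the overlap rule, the flank and the CpG criterion. Input and RNA-seq samples were not analysed here, and the position of 1 Spin1 peak is not reported here.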

Additional observations from a re-analysis of the deposited data

How the results depend on the processing

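Each antibody had 1 library, so the spread between cultures is unknown, and no read counts or depths come with the peaks. No paired analysis was possible because each antibody had a single library and no result came from a test. The 16 results were recomputed under 100 alternatives in all. Of these, 71 left the value within the limit set for it and 29 moved it. That limit was wide for counts and narrow for shares of all genes. A fall from 9 to 6 members with Spin1 counted as within it. A change from 50.7% to 50.1% of all genes with Spin1 counted as moved. The 71 is therefore not a count of unchanged values.

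Among the members, Spin1 was counted at 9 promoters with TSS±0.5 kb, TSS±2 kb, 1 RefSeq Select TSS per gene or a score of at least 100. It was counted at 8 from 1 kb upstream to 0.1 kb downstream (without Trim63), at 8 where the peak center had to lie in the window (without Fst) and at 6 in the 50% of peaks with the highest score (without Gdf11, Trim63 and Foxo4). The CpG-rich promoters were 8 with TSS±0.5 kb or the Select TSS and 9 with the looser limit (with Trim63). H3K4me3 stayed at 10 except for 8 under the center rule (without Trim63 and Foxo1). Mstn had no Spin1 peak under any of these.

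The share of all genes with Spin1 and with H3K4me3 was 50.1% and 61.2% with TSS±0.5 kb, 51.4% and 63% with TSS±2 kb, 49.7% and 61.1% from 1 kb upstream to 0.1 kb downstream, 55.8% and 67.2% with the Select TSS, 38.1% and 56.6% in the top 50% of peaks, 46.5% and 50.5% under the center rule, and 56.7% and 68% in protein-coding genes. At a score of at least 100, H3K4me3 was at 61%. Under the center rule, 14 myostatin and activin genes, 18 ubiquitin ligase genes and 19 Foxo regulators and targets had H3K4me3. Both marks were then counted at 6 members. In the top 50% of peaks, 15 myostatin and activin genes had Spin1.

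With flanks of 25 kb the regions held 12 Spin1 peaks (0 away from promoters) and 21 H3K4me3 peaks (7 away). With 100 kb they held 34 (5) and 54 (21). In the top 50% of peaks, 13 Spin1 peaks (0 away) and 1 H3K4me3 peak away from promoters were left, and a score of at least 100 left 6 of the latter.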
